A study of Mus musculus with 6 samples.

Results

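The cells described here are fibroblasts of the mouse cortex that carried collagen transcripts and little Acta2 (smooth muscle alpha-actin), compared between a stroke infarct and a sham-operated brain. They were chosen by measured transcripts. A cell was taken when it had at least 500 detected genes and at most 10% mitochondrial UMIs (unique molecules), at least 20 UMIs per 10000 from Col1a1, Col1a2 and Col3a1 together, and Acta2 below 10 per 10000. It also had to lack any UMI of Cdh5, Ptprc, Kcnj8 and Slc47a1, which mark endothelial cells, leukocytes, pericytes and arachnoid barrier cells. The rule took 139 cells of the brain infarct library and 98 of the brain sham library, 237 of the 4717 filtered cells in these libraries and of 37323 in all 6 libraries of the series. The infarct cells were 6.71% of their library's filtered cells (exact Clopper-Pearson 95% interval 5.67% to 7.88%), and the sham cells 3.70% (3.02% to 4.50%).

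All mice were Tbx18CreER/+;Rosa26tdT/+, and all received tamoxifen for 4 days with a washout before surgery, so both groups share both alleles and the drug. In these mice the Cre recombinase follows the Tbx18 gene and turns on the red protein tdTomato, and single cells sorted for tdTomato were sequenced from their 3' ends (10x Genomics version 3). The brain infarct library came from the necrotic core after photothrombotic (PT) stroke, the brain peri-infarct library from the area around it, and the brain sham library from mice given sham surgery. The labels used here give no age, sex, number of animals or time after stroke, and each group is 1 library, so no difference below has a replicate check or a test across samples. The sort selects recombined cells of any kind and their progeny, and nothing in it is particular to fibroblasts.

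Fibroblasts of the brain lie in the meninges and along larger vessels rather than in the tissue itself. At rest they build collagen and basement membrane, carry solute transporters, and make signals such as retinoic acid, bone morphogenetic proteins and the chemokine Cxcl12. After injury in brain and other organs, fibroblasts are known to divide, to lay down fibrillar collagen, fibronectin and matricellular proteins, and in part to gain contractile proteins such as Acta2, the usual mark of a myofibroblast.

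Fibroblast markers were present in both groups, and Acta2 was not absent from the infarct cells. Summed over the cells and scaled to 1000000 UMIs (CPM), Col1a1 stood at 9061 in infarct and 1530 in sham cells, Col1a2 at 7493 and 2399, and Dcn (decorin, a collagen-binding proteoglycan) at 1148 and 3772. All 15 listed fibroblast markers were detected in both groups. They summed to 28390 CPM in infarct cells and 12975 CPM in sham cells with the 3 collagen genes of the rule, and the 12 markers that the rule did not use summed to 4458 CPM in infarct and 8445 CPM in sham, the other way round. In endothelial cells those 12 summed to 2019 CPM in infarct and 764 CPM in sham. With each cell thinned to 2000 UMIs, the 12 gave a median of 9 UMIs per infarct cell and 18.5 per sham cell. Acta2 was at 0 in 45 of the 139 infarct cells, against 94 of the 98 sham cells, and summed to 418 CPM in infarct and 12.03 CPM in sham cells. The cells are therefore called Acta2-low here. Within the rule's limits the libraries also sat differently. The median collagen sum was 215 per 10000 in infarct cells and 41.8 in sham cells, and 12 infarct cells but 46 sham cells lay between 20 and 40. The nearest cells inside and outside the collagen limit stood at 22.1 and 19.0 per 10000 in infarct and at 20 and 19.98 in sham, and those at the Acta2 limit at 9.88 and 10.8 in infarct. These values chose the cells and are a description.

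Depth differed between the libraries and with it the rule. The chosen cells held 3540592 UMIs in infarct and 415640 in sham, with a median of 27967 UMIs per infarct cell and 3959.5 per sham cell. A count of 3 UMIs, used below as the floor for genes at 0, was 0.847 CPM in infarct and 7.22 CPM in sham. Ribosomal protein transcripts took 20.5% of UMIs in infarct and 5.22% in sham cells, and the nuclear RNA Malat1 0.795% and 5.01%. Of the collagen cells below the Acta2 limit, 80.2% in infarct and 53.1% in sham carried a Cdh5 UMI and so were left out. A Slc47a1 UMI, whose detection also depends on depth, was carried by 132 of 926 of these cells in infarct and 107 of 305 in sham. Cdh5 summed to 90.5 CPM in infarct collagen cells and 153 CPM in sham collagen cells, against 403 and 445 CPM in endothelial cells, whereas Pecam1, another endothelial gene, summed to 0.580 and 5.66 CPM, against 333 and 471 CPM in endothelial cells. Xist, transcribed from the inactive X of females, stood at 393 CPM in infarct and 7.22 CPM in sham cells, and 4 Y-linked genes together at 26.0 and 322 CPM, so the sex of the animals and the surgery cannot be told apart. Barcodes shared with any other library were borne by 9 infarct and 6 sham cells.

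The comparison took in 3358 genes averaging 50 CPM or more across both libraries. In infarct cells 643 of them (19.1%) stood 2-fold or more above sham cells and 1024 (30.5%) 2-fold or more below, on the ratio of (CPM + 1), and these are the genes called higher or lower from here on. The 643 count Col1a1, Col1a2, Col3a1 and Acta2, which the rule used. The median log2 ratio was -0.17. This balance rests on the scale. The TMM factors of edgeR move ratios up by 0.72 on the log2 scale, and by less where a level is near 0 and the added 1 CPM weighs. Mmp3, for example, went from 9.37 to 9.73. With these factors 1345 of 3272 genes (41.1%) were higher and 475 (14.5%) lower. At 8-fold or more there were 73 higher and 227 lower. The exact Poisson interval of the ratio, which covers counting error only, lay past 2-fold for 378 of the higher and 741 of the lower genes. In endothelial cells of the same libraries, set beside the fibroblasts as another cell type, 264 of 3517 genes (7.51%) were higher and 552 (15.7%) lower in infarct. Of the 643 genes higher in the fibroblasts, 547 were also compared in endothelial cells, and 208 of these were higher there too. Of the 1024 lower genes 670 were compared there, and 227 of these were lower there too. An infarct endothelial level at or above the fibroblast level was found for 90 of the 643. A sham endothelial level at or above it was found for 201 of the 1024. Endothelial cells had a median of 5724 UMIs in infarct and 4140 in sham. They were not free of fibroblast transcripts, with Col1a1 at 1896 CPM in infarct and 49.8 in sham and Spp1 at 1448 and 1.92, and 11 of 92 infarct and 5 of 289 sham endothelial cells passed the collagen limit. Gene lists below were read over the members that reached the 50 CPM average, with the number listed beside them, and a member that reached it through a single library had to differ.

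The highest ratios belonged to secreted proteases and their inhibitors, matrix proteins and lipid carriers. Mmp3, a metalloproteinase (stromelysin) that cuts proteoglycans and activates other proteases, had 661 CPM in infarct cells and no UMI in 98 sham cells, which makes it at least 91.6-fold higher against the floor of 3 counts. Mmp13, a collagenase, had 248 CPM in infarct and 0 in sham, at least 34.4-fold higher. Plaur, the receptor that holds the protease urokinase at the cell surface, had 123 CPM in infarct and 0 in sham, at least 17.0-fold higher. No sham cell carried any of the 3 transcripts, and many infarct cells carried none either, so the groups overlap at 0. With cells thinned to 2000 UMIs, Mmp3 was found in 31.9%, Mmp13 in 8.40% and Plaur in 13.4% of infarct cells. The 5 cells with the most gave 59.6% of the Mmp3 UMIs and 75.9% of the Mmp13 UMIs in infarct, against 22.1% for Plaur. In endothelial cells Mmp3 stood at 26.1 CPM in infarct and 0 in sham, Mmp13 at 0 in both, and Plaur at 78.2 and 39.6 CPM.

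The promoters of these 3 genes are shown because all 3 genes were among the 12 highest ratios and each window holds the letters TGACTCA or its reverse complement TGAGTCA, the consensus bound by AP-1 (Fos and Jun) factors. The sequences are the RefSeq promoters of GRCm38.p6 (the mm10 assembly), 250 bases before to 50 after the start of transcription, all on the plus strand and read 5′ to 3′, with the match in capitals. The windows lie at chr9:7445572-7445871 for Mmp3, chr9:7272264-7272563 for Mmp13 and chr7:24462233-24462532 for Plaur.
Mmp3: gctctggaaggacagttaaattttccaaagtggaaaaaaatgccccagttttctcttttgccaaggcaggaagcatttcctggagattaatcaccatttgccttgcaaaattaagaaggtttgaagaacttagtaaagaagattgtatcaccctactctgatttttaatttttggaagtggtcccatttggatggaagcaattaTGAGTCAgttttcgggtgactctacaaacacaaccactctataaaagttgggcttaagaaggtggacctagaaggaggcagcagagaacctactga
Mmp13: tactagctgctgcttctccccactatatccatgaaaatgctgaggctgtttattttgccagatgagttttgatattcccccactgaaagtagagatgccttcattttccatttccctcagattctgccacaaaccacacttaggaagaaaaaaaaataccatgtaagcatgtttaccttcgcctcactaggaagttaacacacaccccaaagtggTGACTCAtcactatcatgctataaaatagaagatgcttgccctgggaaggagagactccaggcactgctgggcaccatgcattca
Plaur: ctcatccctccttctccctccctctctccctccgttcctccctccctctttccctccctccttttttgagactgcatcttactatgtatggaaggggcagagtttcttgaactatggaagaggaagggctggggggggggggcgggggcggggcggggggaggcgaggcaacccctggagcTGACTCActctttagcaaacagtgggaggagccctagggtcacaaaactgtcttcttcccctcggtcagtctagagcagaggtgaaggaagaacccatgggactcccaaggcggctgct
The match began 46 bases before the start in Mmp3, 35 in Mmp13 and 69 in Plaur. Among the 12 highest ratios 7 genes had an entry, and 3 of their 9 windows held a match on either strand. Among the 12 lowest, 9 genes had an entry and 1 of 11 windows held one, that of Aldh1a1. Of all 32817 promoters in the table, 5.20% did. The match describes these windows and shows neither binding nor a cause. Fos stood at 2290 CPM in infarct and 4391 in sham and Jun at 1734 and 2745, both within 2-fold. Both are on the list of immediate early and dissociation stress genes below, and their part at these promoters was not tested.

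Timp1, an inhibitor of metalloproteinases, stood at 2314 CPM in infarct and 9.62 CPM in sham, a 240-fold ratio with a Poisson interval of 93.9 to 883. Spp1 (osteopontin), a secreted glycoprotein that binds integrins, was the most abundant of these transcripts, at 14829 CPM in infarct and 79.4 CPM in sham (187-fold, 133 to 271). Both were found in most infarct cells, but Spp1 unevenly. In infarct 5 cells gave 45.6% of the Spp1 UMIs, against 21.8% for Timp1. Spp1 had a median of 22.6 UMIs per 10000 in infarct cells and a maximum of 1496, so its sum is not the level of most cells. With each cell thinned to 2000 UMIs, Timp1 was found in 79.0% of 119 infarct cells (interval 70.6% to 85.9%) and in 0 of 86 sham cells, which allows up to 4.20%, and in 14.4% of infarct endothelial cells. Spp1 was found in 84.9% of infarct cells and 5.81% of sham cells, and in 13.3% of infarct endothelial cells. Unthinned, Spp1 was found in 84.9% of infarct and 5.10% of sham cells, and Timp1 in 79.9% and 3.06%. The fatty acid carriers Fabp4 (250 CPM in infarct, 0 in sham, at least 34.6-fold) and Fabp5 (1577 and 7.22 CPM, 218-fold, interval 74.7 to 1060) also stood among the highest. So did H19, an imprinted noncoding RNA of growing tissues, at 423 CPM in infarct and 0 in sham, and Thy1, a surface glycoprotein of many fibroblasts, at 122 CPM in infarct and 0 in sham. Col14a1, a collagen that sits on fibrils, had 114 CPM in infarct and 0 in sham. Tmem176a, a membrane protein, had 517 CPM in infarct and 2.41 CPM in sham, where it rests on 1 UMI. Pclaf, a partner of the replication clamp, had 109 CPM in infarct and 0 in sham.

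**Figure D1:**
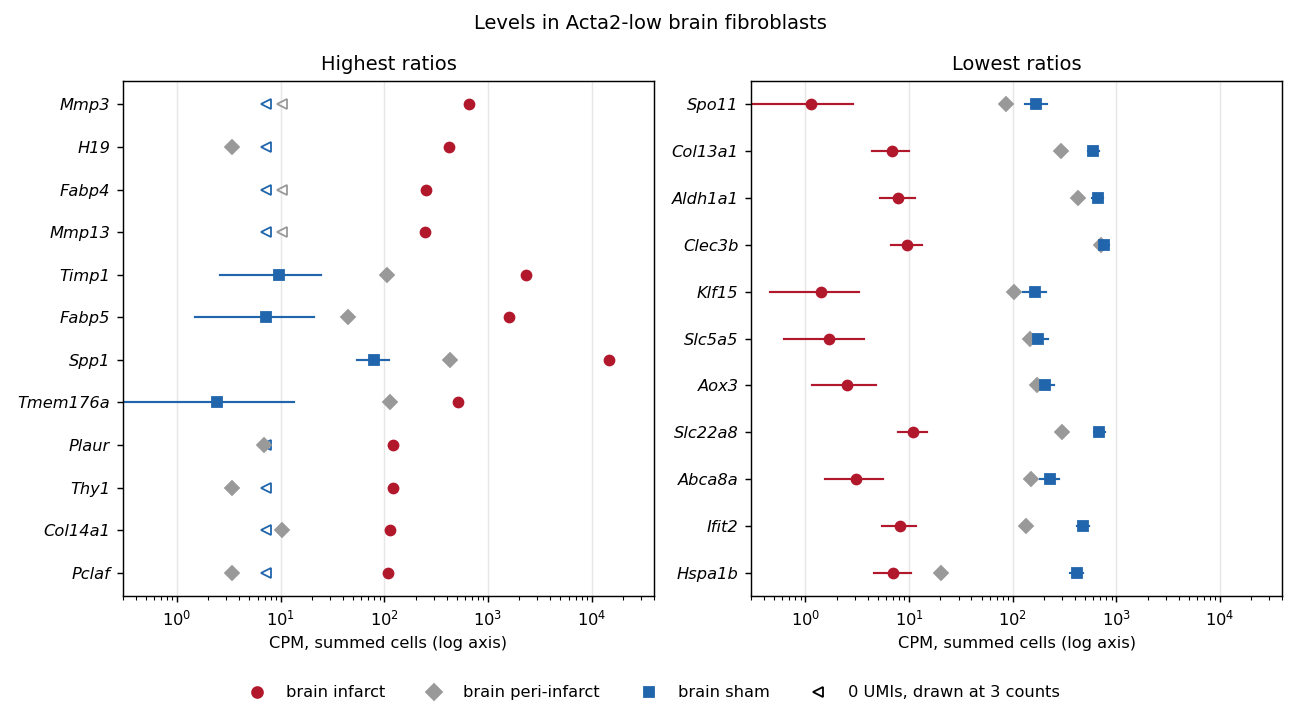
Summed level (CPM, log axis) of the 12 genes with the highest ratio (left) and 11 of the 12 with the lowest (right), infarct over sham, in Acta2-low fibroblasts of brain infarct (circles), brain peri-infarct (diamonds) and brain sham (squares), with exact 95% Poisson intervals on infarct and sham. Open triangles mark genes with 0 UMIs, drawn at 3 counts. Spp1 stands at 14829 CPM in infarct and 79.4 in sham, and Aldh1a1 at 7.91 in infarct and 664 in sham.

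The matrix that these cells transcribed differed in kind as well as amount. Among fibrillar collagens outside the rule, 5 of 7 listed genes were compared, of which 4 were higher, 0 were lower, and the median log2 ratio was 2.02. Col5a1, a chain that seeds collagen I fibrils, stood at 305 CPM in infarct and 31.3 in sham, and Col5a2 at 700 and 149. Other collagens split, with 5 of 10 compared (14 listed) higher and 3 lower and a median of 0.52 that turned negative under 8 of the alternatives tried. Col8a1, a short-chain collagen of remodelled vessels, stood at 382 CPM in infarct and 12.03 in sham (31.7-fold, 13.6 to 97.9), and the beaded-filament collagens Col6a1 (535 and 195) and Col6a3 (225 and 106) were higher too. Col13a1, a membrane-bound collagen, stood at 6.78 CPM in infarct and 601 in sham, and Col23a1, another, at 18.6 and 236.

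Matrix glycoproteins and matricellular proteins had 12 of 24 compared genes (41 listed) higher and 6 lower, with a median of 1.18. Fn1 (fibronectin), the scaffold on which collagen assembles, stood at 2043 CPM in infarct and 57.7 in sham (35.4-fold, 23.8 to 55.3), a log2 ratio of 5.12. In thinned cells it was found in 84.9% of infarct and 2.33% of sham fibroblasts (83.5% and 8.16% unthinned). Endothelial cells also carried Fn1, at 960 CPM in infarct and 428 in sham. Eln (elastin) stood at 973 CPM in infarct and 24.1 in sham, and Tgfbi, an adhesion protein that TGF-beta induces, at 250 CPM in infarct and 2.41 in sham, on 1 sham UMI. Mgp (matrix Gla protein, an inhibitor of calcification) stood at 6796 CPM in infarct and 573 in sham, where 5 cells gave 97.9% of its UMIs and the median cell had none. Not every gene linked to scarring was higher, since Postn (periostin) stood at 59.9 CPM in infarct and 204 in sham, a log2 ratio of -1.76. Of 12 activated fibroblast genes compared (19 listed), 8 were higher and 1 lower, with a median of 1.88. Acta2, which the rule used, is among the 8, and without it 7 of 11 were higher and 1 lower, with a median of 1.68. Lox, which crosslinks collagen and elastin, was at 297 CPM in infarct and 9.62 in sham, and Cdh11, a fibroblast cadherin, at 306 and 50.5. The gene lower among them was Ptn, a heparin-binding growth factor, at 1108 CPM in infarct and 11286 in sham.

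Collagen processing enzymes had 9 of 19 compared (29 listed) higher and 0 lower, with a median of 0.89. They included Bmp1, which trims procollagen (178 CPM in infarct and 28.9 in sham), Serpinh1, the collagen chaperone (2334 and 601), and Fkbp10, a folding enzyme of collagen (324 and 96.2). Proteases and inhibitors had 9 of 18 compared (33 listed) higher and 3 lower, with a median of 0.85. Mmp14, a membrane-bound collagenase, was at 329 CPM in infarct and 132 in sham. Timp3, the matrix-bound inhibitor, went the other way from Timp1, at 195 CPM in infarct and 2206 in sham.

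Basement membrane genes stood lower. None of the 16 compared (17 listed) was higher and 12 were lower, with a median log2 ratio of -1.91. With TMM factors 8 of 16 were lower and 0 higher. Lama1 and Lamc3, laminin chains, stood at 24.0 and 20.9 CPM in infarct cells, against 630 and 426 CPM in sham cells. Col4a6 stood at 5.37 CPM in infarct and 272 in sham, and Col15a1, which joins basement membrane to the matrix below, at 68.4 and 1018. At their infarct levels Lama1, Lamc3 and Col4a6 could reach the 50 CPM average only through sham, so their direction was fixed by the filter. Col4a1, the common collagen IV chain, lay within 2-fold at 615 and 698 CPM. In endothelial cells 1 of 11 compared members was higher and 2 were lower. Small leucine-rich proteoglycans, which bind collagen fibrils, had 5 of 6 compared (11 listed) lower and 0 higher, with a median of -2.28, or 3 lower and 1 higher with TMM factors. Prelp, which anchors basement membrane to matrix, was at 11.3 CPM in infarct and 609 in sham, and Ogn (osteoglycin) at 36.1 and 267. Dcn had a log2 ratio of -1.72 and Lum (lumican), at 425 CPM in infarct and 953 in sham, one of -1.16, and both came within 2-fold with TMM factors (-0.99 and -0.44).

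**Figure D2:**
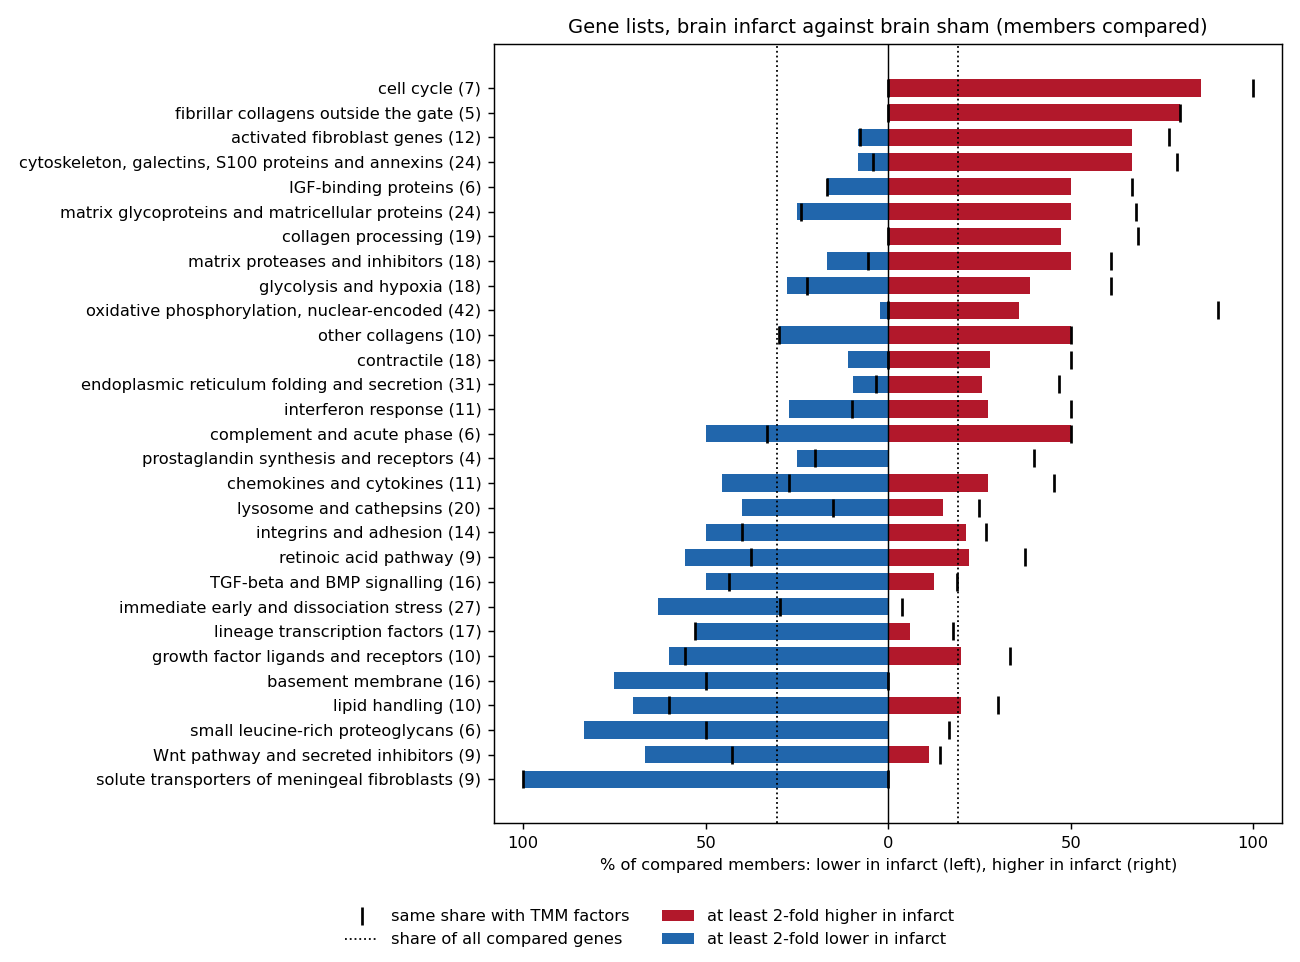
Share of the compared members of each gene list (number in brackets) that was at least 2-fold higher (red, to the right) or lower (blue, to the left) in infarct than in sham Acta2-low fibroblasts. Black ticks give the shares with TMM factors and dotted lines the shares over all compared genes (19.1% higher, 30.5% lower). All 9 solute transporters are lower on both scales. In every list a member that reached the 50 CPM average through a single library had to differ.

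Transporters of the resting meninges were the list with the lowest median. All 9 compared of 25 listed were lower, with a median log2 ratio of -5.09, and all 9 also with TMM factors. Slc6a13, a carrier of GABA and taurine, stood at 52.3 CPM in infarct and 2021 in sham. The organic anion carriers Slc22a6 and Slc22a8 stood at 21.5 and 11.02 CPM in infarct, against 844 and 686 CPM in sham. Slc6a20a, an amino acid carrier, was at 21.7 CPM in infarct and 828 in sham. At their infarct levels Slc22a6, Slc22a8 and Slc6a20a could reach the 50 CPM average only through sham, so that they were lower was fixed by the filter. The count of 9 is a description. Slc22a8 was also found in endothelial cells, at 141 CPM in infarct and 432 CPM in sham. In endothelial cells 5 of 6 compared members of the list were lower and 0 higher. Of the marker list for pial and perivascular fibroblasts, 10 of 12 compared were lower and 1, Spp1, was higher. Its markers summed to 15349 CPM in infarct and 6652 in sham, of which Spp1 made 14829 and 79.4. By count the dural fibroblast list went the other way, with 4 of 7 compared (12 listed) higher and 2, Clec3b and Fmod, lower. Its markers summed to 8118 CPM in infarct and 2122 in sham, of which Mgp made 6796 and 573. Pi16 and Dpt were at 0 in infarct, and Col14a1 and Ly6a at 0 in sham. Both sums thus rest mainly on 1 gene in infarct. Whether the groups hold different kinds of meningeal fibroblast was not tested.

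Ptgds, the prostaglandin D synthase abundant in the meninges, was the sham cells' most prominent transcript in this set, at 49964 CPM, against 1143 CPM in infarct (log2 ratio -5.45). In infarct 5 cells gave 75.6% of its UMIs, against 37.7% in sham. It was found in 15.1% of thinned infarct and 95.3% of thinned sham fibroblasts (26.6% and 92.9% unthinned), and in 2.22% of infarct and 19.9% of sham endothelial cells. The lipid handling list had 7 of 10 compared (23 listed) lower and 2 higher. Apod (apolipoprotein D) stood at 337 CPM in infarct and 9448 in sham, Apoe at 600 and 9951, and Abca8a, a lipid transporter, at 3.11 and 229. The higher pair was Fabp4 and Fabp5. Clec3b (tetranectin), a plasminogen-binding protein, stood at 9.60 CPM in infarct and 760 in sham, and Aox3, an aldehyde oxidase, at 2.54 and 204. Slc5a5, the iodide carrier, was at 1.69 CPM in infarct and 176 in sham. Spo11, known as the enzyme that breaks DNA in meiosis, was at 1.13 and 168.

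Signalling lists held more lower than higher genes on the CPM scale, and part of this rests on the scale. All compared genes did so too, with 30.5% lower and 19.1% higher. With TMM factors those shares were 14.5% lower and 41.1% higher. The Wnt list had 6 of 9 compared genes (26 listed) lower and 1 higher, with a median of -2.42, and 3 lower and 1 higher of 7 with TMM factors. The higher gene was Sfrp4, a secreted Wnt inhibitor, at 594 CPM in infarct and 4.81 in sham (123-fold, 34.1 to 1019, on 2 sham UMIs). Nkd1 and Axin2, feedback inhibitors that Wnt induces, stood at 6.50 and 7.91 CPM in infarct, against 164 and 101 CPM in sham, and the ligand Wnt4 at 11.3 in infarct and 164 in sham, with 75% and 63.2% of its UMIs in 5 cells. In the TGF-beta and BMP list 8 of 16 compared (34 listed) were lower and 2 higher, and 7 lower and 3 higher with TMM factors. Its ligands Bmp7 and Bmp6 stood at 24.0 and 19.2 CPM in infarct cells, against 751 and 476 CPM in sham cells. Tgfb1 was higher, at 98.0 CPM in infarct and 40.9 in sham, while Smad3, which carries the TGF-beta signal to the nucleus, was lower (9.32 and 125). In the retinoic acid list 5 of 9 compared (15 listed) were lower and 2 higher, and with TMM factors 3 of 8 were lower and 3 higher. The synthesis enzymes Aldh1a1 (7.91 CPM in infarct, 664 in sham) and Aldh1a2 (61.3 and 356) were lower, and the binding protein Crabp2 (162 and 79.4) was higher, with 81.8% of its sham UMIs in 5 cells. Growth factor genes had 6 of 10 compared (47 listed) lower and 2 higher, and 5 of 9 lower and 3 higher with TMM factors. Pdgfra, the receptor that marks fibroblasts, stood at 81.1 CPM in infarct and 955 in sham (log2 ratio -3.54), Igf1r at 18.4 and 241, and Vegfa at 51.1 and 399. At their infarct levels Nkd1, Axin2, Wnt4, Bmp7, Bmp6, Smad3, Aldh1a1 and Igf1r could reach the 50 CPM average only through sham. At its sham level Sfrp4 could do so only through infarct. The direction of these genes was thus fixed by the filter.

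Lineage transcription factors had 9 of 17 compared (42 listed) lower and 1 higher, with a median of -1.76, and 9 lower and 3 higher with TMM factors. Tbx18, the gene that drives the Cre, was at 45.2 CPM in infarct and 339 in sham (log2 ratio -2.88). Zic1 and Zic2, zinc finger factors of meningeal cells, stood at 117 and 52.5 CPM in infarct, against 948 and 654 CPM in sham. Foxc1, needed for the meninges to form, was at 142 and 486 CPM, and Klf15, a metabolic regulator, at 1.41 and 164. The higher factor was Prrx1, a regulator of mesenchyme, at 214 CPM in infarct and 74.6 in sham. Igfbp2, of the insulin-like growth factor binding proteins, was at 110 and 3202 CPM, while Igfbp3 (98.6 and 2.41, with 63.3% of its infarct UMIs in 5 cells), Igfbp6 (179 and 45.7) and Igfbp7 (1736 and 508) were higher.

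Immune genes moved in both directions, as did all compared genes, of which 19.1% were higher and 30.5% lower. With TMM factors those shares were 41.1% and 14.5%. Among chemokines and cytokines, 3 of 11 compared (29 listed) were higher and 5 lower, a balance that turned to 5 higher and 3 lower with TMM factors. Cxcl12, which draws cells that carry Cxcr4, was at 416 CPM in infarct and 1788 in sham, Il34, a ligand of the Csf1 receptor, at 14.7 and 650, and Csf1 itself at 16.4 and 183. Il33, an alarmin, was higher, at 264 and 91.4. Interferon-response genes had 3 of 11 compared (29 listed) higher and 3 lower, or 5 of 10 higher and 1 lower with TMM factors. Among them were Ifit2 at 8.19 and Ifit3 at 3.67 CPM in infarct cells, against 479 and 118 CPM in sham cells, and Ifitm3 at 2021 CPM in infarct and 640 in sham. Complement and acute phase genes had 3 of 6 compared (22 listed) higher and 3 lower. The acute phase protein Saa3 was at 107 CPM in infarct and 0 in sham, with 97.6% of its UMIs in 5 infarct cells. At their infarct levels Il34, Csf1, Ifit2 and Ifit3 could reach the 50 CPM average only through sham, and Saa3 only through infarct. The direction of these genes was thus fixed by the filter.

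The cytoskeleton, galectin, S100 and annexin list had 16 of 24 compared (28 listed) higher and 2 lower, with a median of 1.48. Vim (vimentin) stood at 3712 CPM in infarct and 342 in sham, Lgals1 (galectin 1) at 4485 and 669, Anxa1 at 604 and 43.3 and Tubb6 at 211 and 4.81. In endothelial cells 12 of 24 were higher and 1 lower, and Vim stood there at 3969 CPM in infarct and 1058 in sham. The list is thus higher in both cell kinds, and the difference between them was not tested. Of contractile genes other than Acta2, 5 of 18 compared (25 listed) were higher and 2 lower, or 9 higher and 0 lower with TMM factors. Tagln (transgelin) was at 359 CPM in infarct and 60.1 in sham, and Tpm2 (tropomyosin 2) at 414 and 55.3. Myh11, the smooth muscle myosin, was at 0 in infarct and 2.41 CPM in sham cells, on 1 UMI.

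Genes of division were higher. Of 7 cell cycle genes compared, 6 were higher and 0 lower, with a median of 2.29, out of 34 listed. Ube2c, which marks proteins for destruction in mitosis, was at 103 CPM in infarct, where 5 cells gave 70.8% of its UMIs, and 0 in sham, Birc5 (survivin) at 147 and 4.81, and Hmgb2 at 295 and 26.5. At their sham levels Ube2c, Birc5 and Hmgb2 could reach the 50 CPM average only through infarct, so that they were higher was fixed by the filter. Mki67, the proliferation marker, was below the level for comparison, at 37.6 CPM in infarct and 0 in sham. It was found in 12 of 119 thinned infarct cells (10.1%) and 0 of 86 sham cells, which allows up to 4.20% (22.3% and 0 unthinned). Among infarct endothelial cells it was found in 3.33%, but summed it stood at 55.6 CPM there and at 0 in sham endothelial cells. Of 6 cell cycle genes compared in endothelial cells, 4 were higher and 0 lower. Division genes were thus higher in both cell kinds, and the difference between them was not tested. Nuclear genes of oxidative phosphorylation had 15 of 42 compared and listed higher and 1 lower, and 38 higher and 0 lower with TMM factors, and glycolysis and hypoxia genes 7 of 18 compared (31 listed) higher and 5 lower, or 11 and 4 with TMM factors. Hmox1, which breaks down haem, stood at 104 CPM in infarct and 19.3 in sham, and Adm (adrenomedullin), a gene of hypoxia, at 12.4 and 306. Genes for folding and secretion in the endoplasmic reticulum had 8 of 31 compared (36 listed) higher and 3 lower, or 14 of 30 and 1 with TMM factors, among them the translocon subunit Sec61b, at 1382 and 226 CPM. Lysosome genes had 3 of 20 compared (25 listed) higher and 8 lower, or 5 higher and 3 lower with TMM factors, and integrins and adhesion genes 3 of 14 compared (30 listed) higher and 7 lower, the median of the adhesion list being -1.01, or 0.27 with TMM factors.

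Immediate early and dissociation stress genes, which enzymatic digestion can switch on, were lower in infarct cells, 17 of 27 compared (32 listed) with 0 higher and a median of -1.41, or 8 lower and 1 higher with TMM factors. The heat shock genes Hspa1a and Hspa1b, near-identical copies whose reads may be divided between them, stood at 37.6 and 7.06 CPM in infarct, against 1157 and 414 CPM in sham. In sham 5 cells gave 59.3% of the Hspa1b UMIs, and sham endothelial cells carried 624 CPM of it, against 37.3 CPM in infarct endothelial cells. Of 26 members compared in endothelial cells, 2 were higher and 5 lower. What this difference adds to the other lists was not tested.

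**Figure D3:**
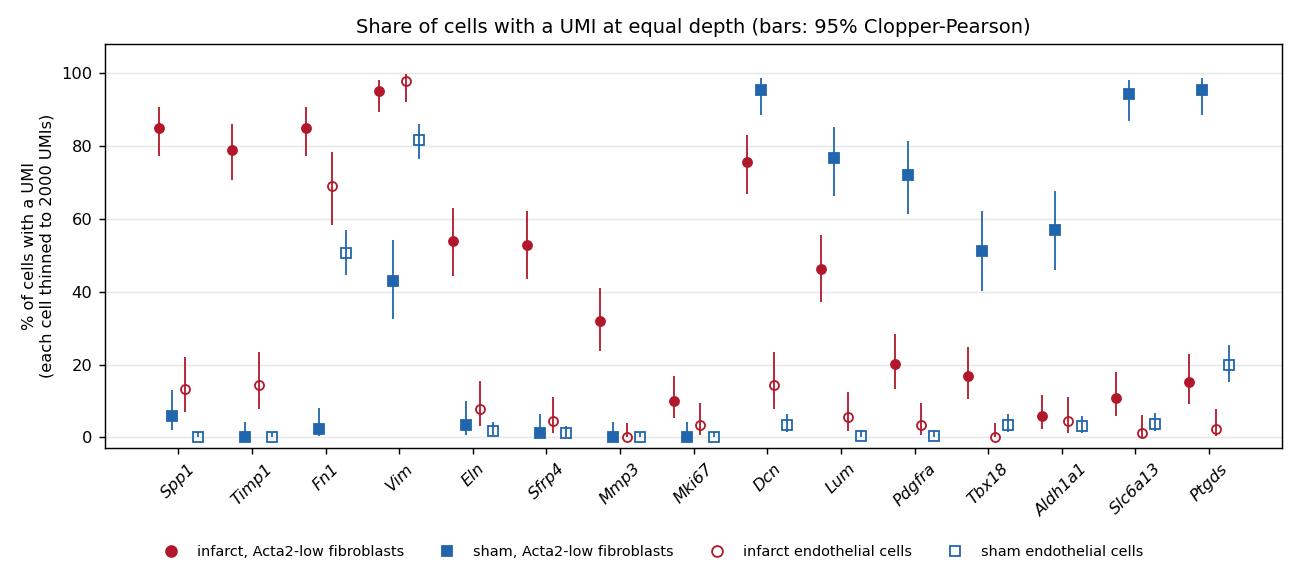
Percentage of cells with at least 1 UMI of each gene after thinning to 2000 UMIs, with exact Clopper-Pearson 95% intervals, in Acta2-low fibroblasts (filled; 119 infarct, 86 sham) and in endothelial cells (open; 90 infarct, 266 sham). Spp1 and Fn1 were each found in 84.9% of infarct fibroblasts, against 5.81% and 2.33% of sham fibroblasts, and Ptgds in 15.1% of infarct and 95.3% of sham fibroblasts.

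Single cells of the infarct library were not all alike. The resting transcripts Ptgds, Slc6a13 and Aldh1a1, 3 genes picked after their values were seen, together gave a UMI in 21 of 119 thinned infarct cells, at least 5 UMIs per 2000 in 14 and at least 20 in 10. All 86 thinned sham cells carried at least 1 such UMI, 83 at least 5 and 59 at least 20, with a median of 39.5. Unthinned sham cells had medians of 123 Ptgds, 17.9 Slc6a13 and 5.05 Aldh1a1 UMIs per 10000. The sum is thus mostly Ptgds, which is also on the arachnoid marker list, and whether it reads a fibroblast state was not tested. The 14 infarct cells had a median of 4662 UMIs before thinning and a median collagen sum of 51.2 per 10000, against 32293 UMIs and 244 per 10000 for the other 105 infarct cells. Spp1 was found in 7 of the 14 and in 94 of the 105, Timp1 in 2 and 92, and Fn1 in 2 and 99. None of the 14 shared a barcode with another library. Depth ran from 2629 to 27106 UMIs in the 14 and from 2210 to 67154 in the 105, so the ranges overlap, and the part of depth in this split was not tested. Mmp3 or Mmp13 was found in 42 of 119 infarct cells, and 26 detected cell cycle genes together gave at least 5 UMIs in 18 infarct and 0 sham cells.

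**Figure D4:**
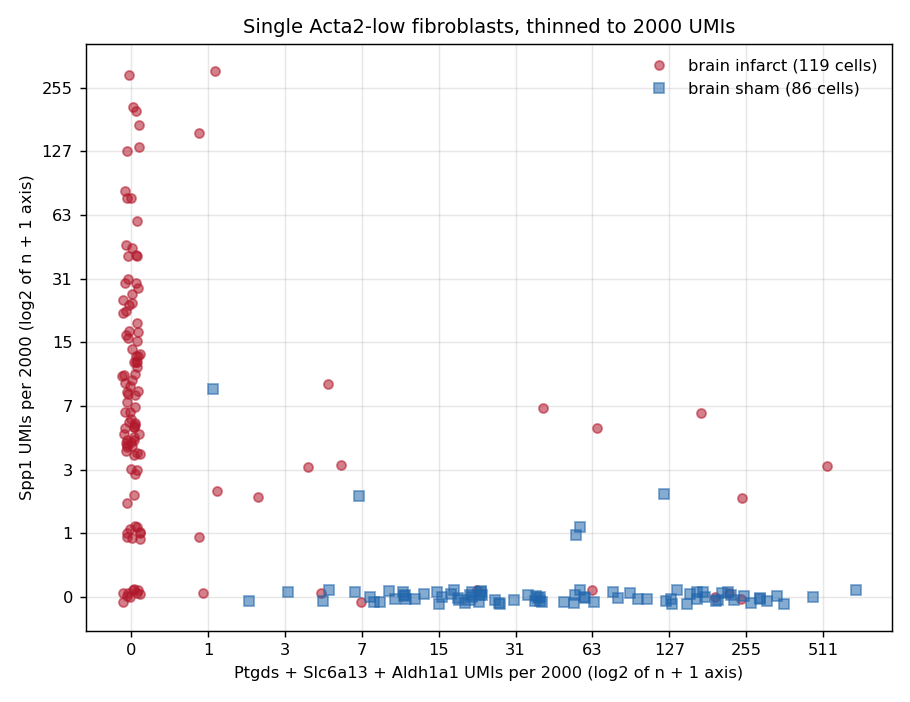
Each point is 1 Acta2-low fibroblast thinned to 2000 UMIs (119 infarct cells as circles, 86 sham cells as squares, spread slightly at random to show overlap), by its UMIs of the 3 resting transcripts (x) and of Spp1 (y), both on a log2 of (n + 1) axis. Sham cells lie at 1 or more resting UMIs and mostly at no Spp1, and all but 21 infarct cells lie at 0 resting UMIs. In sham cells the resting UMIs are mostly Ptgds.

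Within the infarct library the Acta2-low cells were set against 58 collagen cells that met every other condition but had Acta2 at or above 10 per 10000. The sham library had 0 such cells. Of 2676 genes compared, 41 (1.53%) were at least 2-fold higher and 11 (0.411%) lower in Acta2-low than in Acta2-rich cells. Acta2 itself, which split the cells, is counted among the 11. Of the 643 genes higher in infarct than in sham, 630 lay within 2-fold between both kinds of infarct cell, 11 were higher and 2 lower. This is near the share over all 2676 genes, so it is not particular to the 643. Col1a1 stood at 9061 CPM in Acta2-low and 8805 CPM in Acta2-rich cells, Timp1 at 2314 and 2692, Fn1 at 2043 and 1847, and Mmp13 at 248 and 233. Mmp3 was higher in Acta2-low cells, at 661 CPM, against 252 CPM in Acta2-rich cells, and so was Sfrp4, at 594 and 156.

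Among the largest ratios between both kinds were transcripts abundant in sham cells and 1 that was not found there. Ptgds stood at 1143 CPM in Acta2-low and 0.975 CPM in Acta2-rich cells, Apod at 337 and 5.36, and Igfbp2 at 110 and 3.90. Saa3, with 0 UMIs in sham, stood at 107 and 0, and 5 cells gave 97.6% of its UMIs. All 6 compared complement and acute phase genes were higher in Acta2-low cells, Saa3 included. The 6 lowest ratios mixed contractile, matrix and other genes, with Tagln at 359 CPM in Acta2-low and 1309 CPM in Acta2-rich cells, Myl9 (myosin light chain 9) at 79.4 and 228, and Csrp1, a muscle LIM protein, at 188 and 493. Fmod (fibromodulin) was at 28.2 and 80.5, Thbs1 (thrombospondin 1) at 31.1 and 83.9, and Aldh1a3, a retinoic acid enzyme, at 35.9 and 86.8. Of 18 compared members of the contractile list, 0 were higher and 2 lower. The counts move with depth handling, since 217 genes were higher and 121 lower with each cell thinned to 2000 UMIs.

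**Figure D5:**
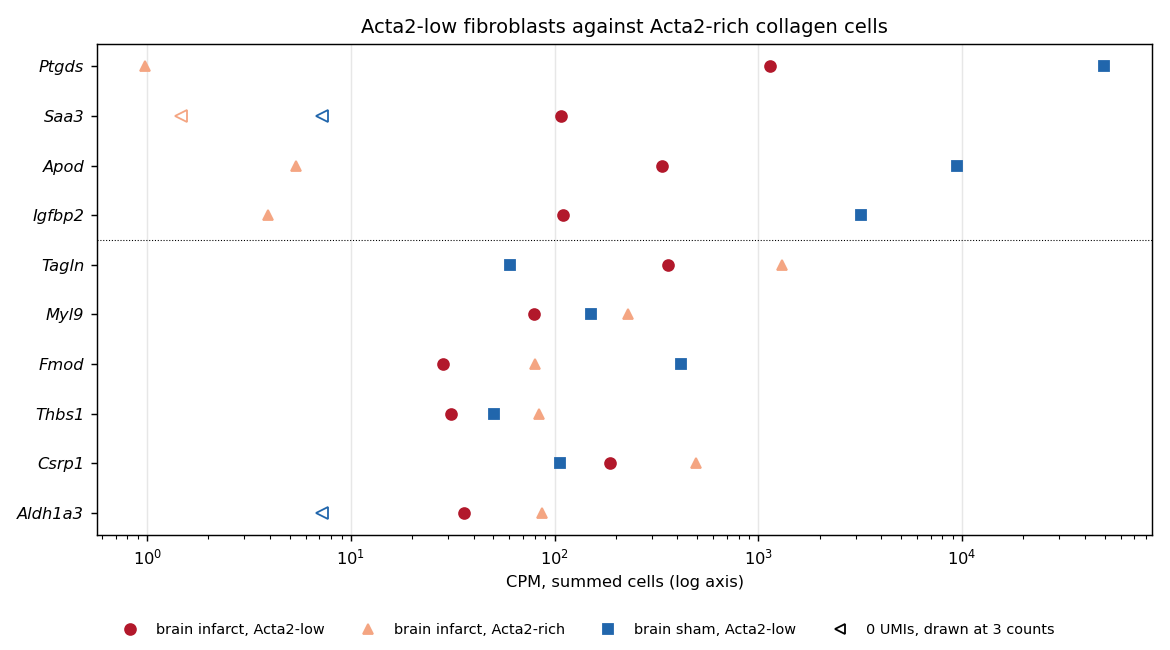
Summed level (CPM, log axis) of 4 of the 6 genes with the highest ratio (above the dotted line) and the 6 with the lowest (below it) between Acta2-low fibroblasts (circles) and Acta2-rich collagen cells (upward triangles) of the brain infarct, with the Acta2-low fibroblasts of brain sham (squares). Left-pointing open triangles mark genes with 0 UMIs, drawn at 3 counts. Ptgds stands at 1143 CPM in Acta2-low, 0.975 in Acta2-rich and 49964 in sham cells.

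Collagen cells left out for a Cdh5 UMI alone, 591 in infarct and 89 in sham, were compared in the same way, a comparison added after the data were seen. Among them 682 of 3313 genes (20.6%) were higher and 976 (29.5%) lower in infarct than in sham. Acta2-low cells without Cdh5 differed from those with it at 12 of 2729 genes in infarct, 7 higher (0.257%) and 5 lower (0.183%), and at 45 of 3737 in sham, 24 higher (0.642%) and 21 lower (0.562%). Cdh5 itself, which split the cells, is counted among the 5 and among the 21. Cells with a Cdh5 UMI had Spp1 at 9001 CPM in infarct and 0 in sham, Fn1 at 1586 and 26.9, Ptgds at 185 and 75369 and Pdgfra at 104 and 886. The genes lower in the infarct cells without Cdh5 included Ube2c (103 CPM without, 246 with) and Cenpf (32.8 and 90.9), both genes of mitosis. In sham the cells without Cdh5 had more Hspa1a (1157 CPM, against 236 with Cdh5) and Mgp (573 and 135), and 5 cells without Cdh5 gave 49.9% of the Hspa1a and 97.9% of the Mgp UMIs.

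The 68 Acta2-low cells of the peri-infarct library stood nearer to sham. Of 3604 genes compared, 126 (3.50%) were higher and 238 (6.60%) lower than in sham, on a sum of fewer cells. Both comparisons share the sham cells. The peri-infarct cells were also near sham in depth, with a median of 3541 UMIs, against 3959.5 in sham and 27967 in infarct. Ribosomal protein transcripts took 8.33% of UMIs in peri-infarct, 5.22% in sham and 20.5% in infarct cells. Xist stood at 554 CPM in peri-infarct, 7.22 in sham and 393 in infarct cells. The 4 Y-linked genes together stood at 126.5, 322 and 26.0 CPM. The part of depth and sex in this nearness was not tested. Timp1 was at 106 CPM in peri-infarct and 9.62 in sham, Spp1 at 431 and 79.4, Vim at 992 and 342 and Sfrp4 at 95.8 and 4.81, all 4 higher. Mmp3 and Mmp13 had 0 UMIs in both. Fn1 stood at 61.6 CPM in peri-infarct and 57.7 in sham, Ptgds at 76938 and 49964, Slc6a13 at 1576 and 2021 and Pdgfra at 838 and 955, none of them past 2-fold. Rgs5, a pericyte gene, stood at 1105 CPM in peri-infarct and 40.9 in sham, against 23.4 CPM in infarct cells.

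Markers of other cell types were read in the same sums. The 12 pericyte markers summed to 502 CPM in infarct and 5536 CPM in sham, of which Vtn (vitronectin) made 152 and 4764, and Kcnj8 was at 0 by the rule. The 13 endothelial markers summed to 242 CPM in infarct and 871 CPM in sham, against 10650 and 15484 CPM in endothelial cells, and Pecam1 and Tek were at 0 in both groups. The 16 macrophage and microglia markers summed to 171 and 233 CPM, with P2ry12 at 0 in both. The 15 astrocyte markers summed to 401 CPM in infarct and 1939 CPM in sham, with Aqp4 at 0 in both. The 14 arachnoid markers summed to 1575 CPM in infarct and 50900 CPM in sham, of which Ptgds made 1143 and 49964, with Slc47a1 at 0 by the rule and Krt18 at 0 in both. The 13 smooth muscle markers, Acta2 among them, summed to 895 CPM in infarct and 265 CPM in sham. The part of other cells in the differences above was not tested.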

How the data were processed

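Raw counts of UMIs by gene and barcode were deposited. The authors made them with Cell Ranger 3.0.2 on mm10, per the submitters' processing notes. Seurat 3 is listed there too. Each library lists 31053 genes, and gene positions come from GENCODE vM21. Whole-library depth was 54810989 UMIs in brain infarct, 11796570 in brain peri-infarct and 12311632 in brain sham, and a sum's precision is given by exact 95% Poisson intervals (scipy 1.17.1).

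Counts of the chosen cells were summed per library and scaled to CPM. A gene was compared at a mean of at least 50 CPM and called at a 2-fold ratio of (CPM + 1). Endothelial cells carried at least 1 Cdh5 and 1 Pecam1 UMI and no Ptprc UMI. No doublet caller was run. With 1 library per group no test was made. TMM factors came from edgeR 4.0.16. The script was tested on simulated data.

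Named genes are the 12 highest and 12 lowest ratios (ribosomal, mitochondrial, haemoglobin, predicted and rule genes left out), 13 genes always named, up to 4 members of each of 29 lists, and the 6 highest and 6 lowest against Acta2-rich cells. A few others (Mgp, Apoe, Lgals1, Fos, Jun, Wnt and collagen genes, those read in cells with a Cdh5 UMI) were named after their values were seen. Some genes the rule names are not reported here. Members and lists were chosen with earlier results of these data known. The alternatives cover cell filters, rule limits, thinning, scaling, the CPM minimum and the pseudocount.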

Additional observations from a re-analysis of the deposited data

How the results depend on the processing

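No paired analysis was possible because each group is 1 library, and no replicate could be left out. Of 129 named-gene ratios under 21 alternatives, 124 were called higher or lower and 0 of these changed sign. Thbs1, at -0.68 and under the 50 CPM level, turned to 0.02 with TMM factors and 0.33 as a mean of cell CPM. Of the 2709 values 2113 lay inside the counting interval of the reported ratio and 596 outside it. Of 29 list medians 6 changed sign. Chemokines and cytokines (-0.31), complement and acute phase (0.05), interferon response (0.10) and prostaglandin synthesis (-0.20) were near 0 and did so under 4, 9, 2 and 2 alternatives. Other collagens, at 0.52, gave -0.11 with cells thinned to 2000 UMIs, -0.0699 with collagen at least 40 per 10000, -0.0143 with Acta2 below 20, -0.46 with the excluded genes allowed below 1 per 10000, -0.58 with the whole rule applied to thinned cells, -0.14 as a mean of cell CPM, -0.21 at a mean of 10 CPM and -0.48 with Cdh5 not excluded (added after the data were seen). Integrins and adhesion, at -1.01, gave 0.27 with TMM factors, which move ratios up and also took the number of members compared from 14 to 15. The 643 higher and 1024 lower genes became 1345 and 475 with TMM factors, 995 and 965 with a total free of ribosomal, mitochondrial and rule genes, 1208 and 3269 at a mean of 10 CPM, and 296 and 168 at 200 CPM. Other settings kept both counts within 1.5 times, thinning to 2000 UMIs (666 and 1038) and leaving out cells with shared barcodes (660 and 1029) included. The infarct share of 6.71% became 4.59% with Acta2 below 5, 8.35% below 20, 23.4% with the excluded genes below 1 per 10000, 33.4% with the rule on thinned cells and 35.2% with Cdh5 not excluded. The sham share of 3.70% became 4.50% with collagen at least 10, 1.97% at least 40, 7.03% on thinned cells and 7.07% with Cdh5 not excluded. Against Acta2-rich cells, the 41 higher genes became 217 with thinned cells, 78 with the rule on thinned cells, 167 as a mean of cell CPM, 173 at a mean of 10 CPM and 8 at 200 CPM. The 11 lower genes became 121 with thinned cells, 7 with Acta2 below 5, 5 with the excluded genes below 1 per 10000, 47 at 10 CPM, 4 at 200 CPM and 5 with Cdh5 not excluded. The shares under other limits, or without the Cdh5 exclusion, follow from a looser or tighter rule. With the rule on thinned cells no limit changed, and cells were instead brought to 2000 UMIs each. The part of each exclusion in that change, and the cause of the other changes, was not tested. A sham sum of 415640 UMIs limits ratios of genes near 7.22 CPM.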
